A study of Homo sapiens with 24 samples.

Results

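MYC and the genes of nucleolar ribosome biogenesis were followed in 3 human breast cancer cell lines. The gene set lists MYC and genes whose products transcribe ribosomal RNA, modify and cleave it, or assemble it into ribosomal subunits. Of 40 listed genes, 35 had a probe set of their own on the arrays, out of 19775 genes measured, and all 35 passed the filter on low signal, which left 14141 genes for testing. NOP56, DKC1 and BOP1 were found only on probe sets shared by several genes, and GNL3 and DDX18 were not named in the annotation used, so these 5 were not analysed here. For each gene the probe set of highest mean signal over all 24 arrays was used.

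The study asked what a block of MCT1 does to gene expression in glycolytic breast cancer cells. MCT1 is a transporter that carries lactate and pyruvate across the plasma membrane. In the inhibitor experiment HS578T, SUM149PT and SUM159PT cells received DMSO (the solvent control) or AZD3965, an MCT1 inhibitor, for 24 hours, and in the shRNA experiment SUM149PT cells carried a lentiviral scramble or MCT1 shRNA and were held under puromycin (2 µg/ml, 5 days) until RNA was taken. Each of these 8 groups has 3 arrays; the dose of AZD3965 and the number of hairpins are not given in the sources used here. HS578T was grown in DMEM, whereas both SUM lines were grown in F12 with insulin, hydrocortisone and EGF, so a difference between HS578T and the SUM lines and a difference between the media cannot be told apart. The labels do not say whether the 3 arrays of a group came from separate cultures, and each line is a single line, so p-values measure the spread between these arrays.

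MYC is a transcription factor that, paired with MAX, binds the letters CACGTG (the E-box) and is known to raise transcription of genes for ribosome production. In the nucleolus RNA polymerase I makes a long precursor RNA, small nucleolar ribonucleoproteins (snoRNPs) guide its chemical modification, and a large particle called the small subunit processome folds and cuts it. Other factors then build the 60S subunit, and both subunits leave for the cytoplasm.

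The values are MAS5 signals, linear brightness units scaled by the authors to the same trimmed mean of 500.1 on every array. A signal cannot be set against that of another gene, because probes differ in response. Differences are log2(signal + 16) with their standard error (SE), and a gene was called where limma's test gave a Benjamini-Hochberg adjusted p under 0.05 over the 14141 genes. The number of arrays limits the precision. Median signal lay between 49.2 and 67.4 on the 18 arrays of the inhibitor experiment. One array stood apart, scramble shRNA replicate 3, whose 3'/5' ratio of actin (a sign of RNA quality) was 53.8 against 1.39 to 2.14 on the other 5 shRNA arrays and at most 1.37 on the 18 inhibitor arrays. The level of the gene targeted by the shRNA was not analysed here, so the knockdown labels were not checked. The epithelial markers CDH1 and EPCAM were high in SUM149PT and near 0 in HS578T and SUM159PT. The summed signal of 7 epithelial markers was 5990 to 6130 in HS578T, 54100 to 56800 in SUM149PT and 9400 to 11400 in SUM159PT under DMSO, and the part of this difference in the results below was not tested.

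The gene set separated the lines far more than it separated treated from control cells, and so did all genes tested. Between lines 58% to 64.2% of all genes were called, against 14.9% with MCT1 shRNA and at most 0.304% with AZD3965. Under DMSO, HS578T was the lowest line for most of the set. In HS578T against SUM159PT, 34 of 35 genes were lower and 0 were higher, with NPM1 not passing, where 30.7% of all genes tested were lower, 27.3% higher and 58% called either way. In HS578T against SUM149PT, 28 genes were lower, 0 were higher and 7 did not pass, where 33.8% of all genes were lower, 30.4% higher and 64.2% called either way. The median log2 difference of the 35 genes was -0.93 and -0.59, beside -0.03 and -0.02 over all genes tested.

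SUM149PT and SUM159PT also differed, in both directions. In SUM149PT against SUM159PT, 20 genes were lower, 4 were higher and 11 did not pass, where 29.3% and 30% of all genes were called in these directions and 59.4% in either. The median was -0.43, beside -0.02 over all genes. On the 9 DMSO arrays the 3 HS578T values lay below the other 6 in 29 of 35 genes (21.1% of all genes) and above them in 0 (19.5%). The 3 SUM159PT values were the highest in 22 genes (17%), and the 3 SUM149PT values in 7 (22.4%). The SUM159PT values were the lowest in 0 genes (14.1%) and the SUM149PT values in 1 (19.1%). These comparisons share arrays, so their counts are not independent of each other.

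**Figure D1:**
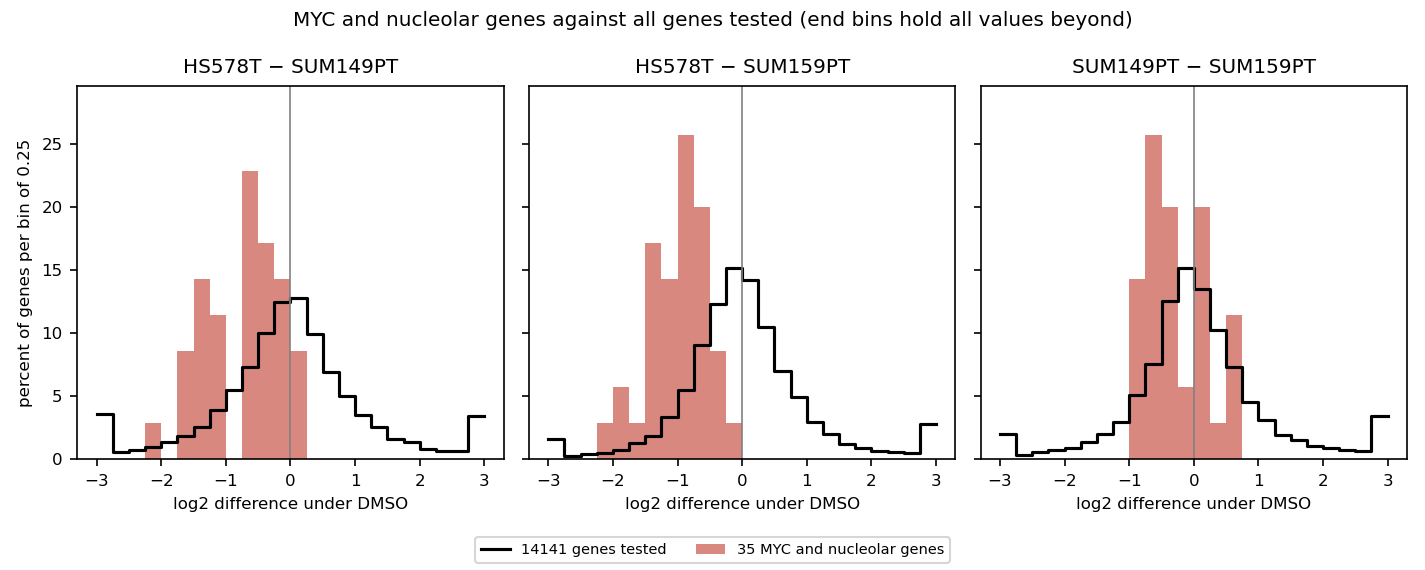
Percent of genes (vertical axis) per bin of 0.25 in the log2 difference between lines under DMSO (horizontal axis), for the 35 MYC and nucleolar genes (bars) and all 14141 genes tested (line). The bars lie to the left of the line in both comparisons of HS578T, with medians of -0.59 and -0.93, and on both sides of 0 for SUM149PT minus SUM159PT.

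MYC followed the order of the lines. Its signal was 3631, 3621 and 3602 in HS578T under DMSO, a mean of 3618 ± 14.5 (SD, n = 3). It was 9484, 8918 and 8115 in SUM149PT and 12530, 11990 and 12430 in SUM159PT. No array of one line overlapped an array of another. MYC was lower in HS578T by -1.28 ± 0.08 (SE) against SUM149PT and -1.76 ± 0.08 against SUM159PT, and lower in SUM149PT than in SUM159PT by -0.48 ± 0.08 (limma, adjusted p = 7.21e-13, 3.1e-15 and 1.16e-05). The same order held on the AZD3965 arrays, with means of 3606 ± 212, 9352 ± 524 and 14120 ± 1294 (SD, n = 3 each). In the shRNA experiment MYC was 9102 ± 613 with scramble and 9374 ± 849 with MCT1 shRNA (SD, n = 3 each).

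**Figure D2:**
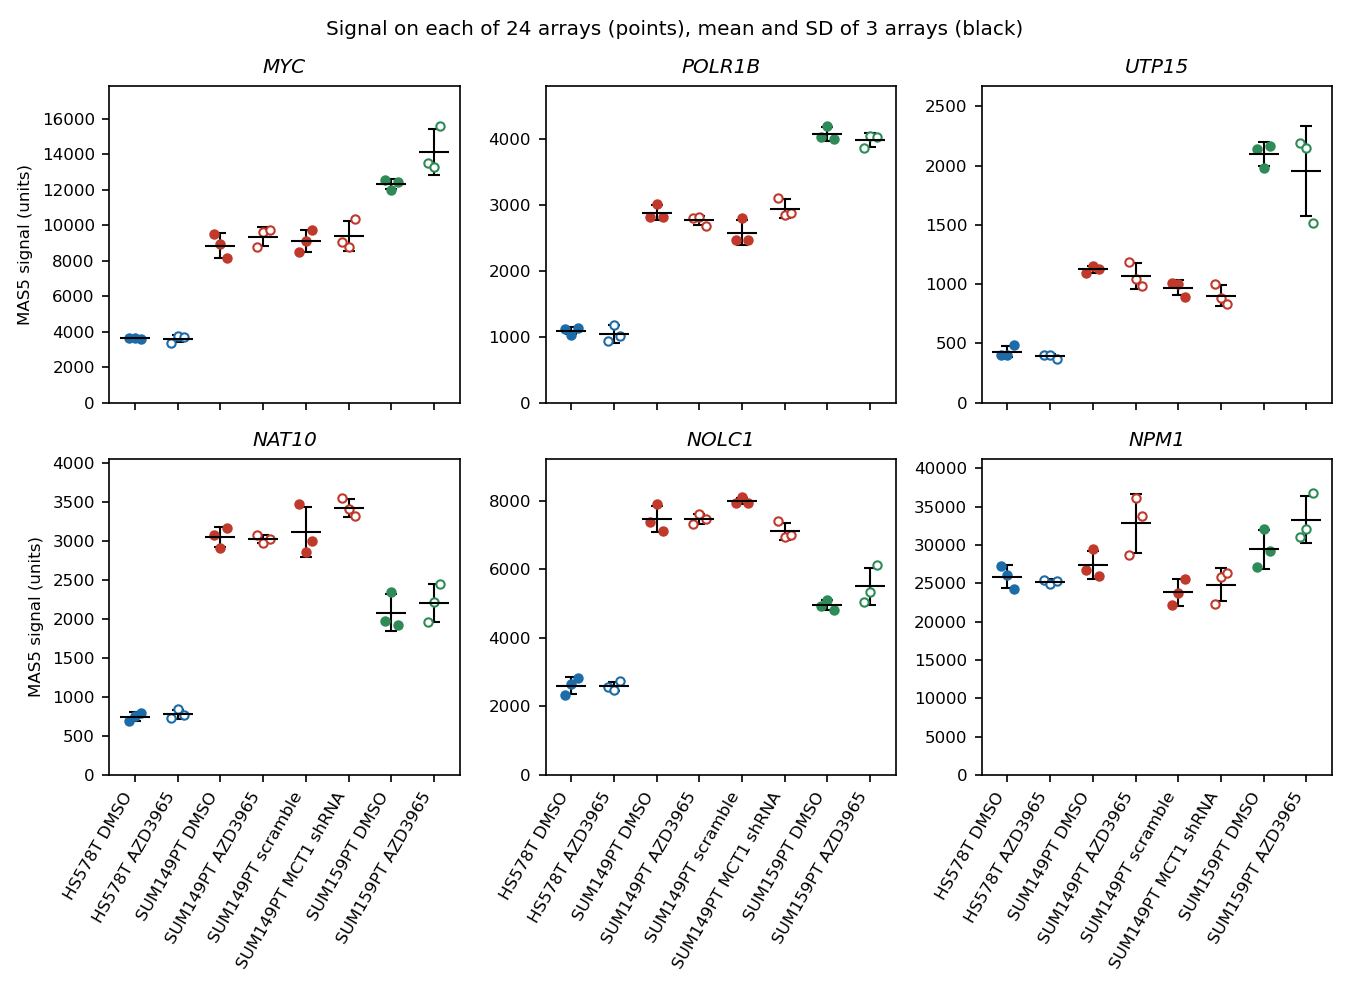
MAS5 signal (vertical axis, linear units from 0) of 6 genes on each of the 24 arrays, by group; blue is HS578T, red SUM149PT and green SUM159PT, filled points are controls and open points treated arrays, and black marks show mean and SD of 3 arrays. MYC, POLR1B and UTP15 rise from HS578T to SUM149PT to SUM159PT, NAT10 and NOLC1 are highest in SUM149PT, and NPM1 overlaps between the lines under DMSO.

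Letters that MYC and MAX are known to bind were searched in the promoters, because many of these genes were low together with MYC. RefSeq windows on GRCh38.p14, from 250 bases before to 50 bases after a start, were given for 30 of the 35 genes. A gene can have more than 1 start (35116 windows in all), and was counted if any of its windows held the letters. A start can lie inside the gene, as for the BYSL window below, whose gene begins at chr6:41908759. The number of windows per gene was not compared between the set and all genes. The letters CACGTG, which read the same on both strands, were present in 15 of these 30 (50%). They were present in 12.2% of the 11393 tested genes with a window and in 8.77% of all 27305 genes of the table. Within 50 bases of a start they were found in 14 of the 30 (46.7%), against 5.2% of tested genes. By role, the letters were in 8 of 14 small subunit genes, 3 of 5 genes of 60S assembly, 2 of 3 snoRNP genes, 2 of 4 other nucleolar genes and 0 of 4 genes of RNA polymerase I. In the lists outside the set described below, the letters were in 66.7% of 12 MYC-responsive genes, 34.6% of 26 small and 25% of 24 large subunit factors. Shares were lower in polymerase I genes (7.69% of 13), ribosomal proteins (10% of 10) and partners and antagonists of MYC (22.2% of 9). The set was itself chosen as MYC and ribosome biogenesis genes, and its share was not tested. The match is a description of the letters and not a binding site. The median difference between HS578T and SUM149PT was -0.59 for the 15 genes with the letters and -0.53 for the 15 without, and between HS578T and SUM159PT -1.10 and -0.93. Between SUM149PT and SUM159PT the order was the other way, with -0.27 for genes with the letters and -0.40 for those without.

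The 100 bases before the start of 3 small subunit genes show where the letters (in capitals) sit. All 3 run on the plus strand, 5′ to 3′, NAT10 at chr11:34105529-34105628, UTP20 at chr12:101280005-101280104 and UTP4 at chr16:69132549-69132648.
NAT10: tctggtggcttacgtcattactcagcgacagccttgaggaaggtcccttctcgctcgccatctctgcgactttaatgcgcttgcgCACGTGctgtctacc
UTP20: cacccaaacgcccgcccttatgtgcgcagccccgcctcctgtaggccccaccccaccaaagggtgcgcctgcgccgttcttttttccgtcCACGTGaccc
UTP4: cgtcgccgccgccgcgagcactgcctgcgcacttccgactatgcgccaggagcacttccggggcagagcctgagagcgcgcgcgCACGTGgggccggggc
In 5 other genes named below, windows of 30 bases around the letters are given in the direction of the gene. They lie at chr4:2963374-2963403 (minus strand, NOP14), chr12:6568242-6568271 (minus, NOP2), chr4:4290068-4290097 (minus, LYAR), chr4:109815781-109815810 (plus, GAR1) and chr6:41921515-41921544 (plus, BYSL).
NOP14: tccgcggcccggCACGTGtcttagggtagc
NOP2: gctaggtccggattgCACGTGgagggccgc
LYAR: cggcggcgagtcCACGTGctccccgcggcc
GAR1: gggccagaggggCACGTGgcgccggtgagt
BYSL: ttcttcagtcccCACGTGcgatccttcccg
The first letter of the E-box lay 15, 10 and 16 bases before the start in NAT10, UTP20 and UTP4.

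The genes of RNA polymerase I were lower in HS578T. All 4 were lower than in SUM159PT, and 3 of 4 were lower than in SUM149PT, where 30.7% and 33.8% of all genes tested were lower. POLR1B, the second-largest subunit of the enzyme, read 1123, 1025 and 1130 in HS578T under DMSO, 2816, 3020 and 2813 in SUM149PT, and 4026, 4203 and 4004 in SUM159PT. The 3 lines did not overlap. Its level in HS578T was 0.271 times that in SUM159PT (log2 difference -1.89 ± 0.08, limma, adjusted p = 6.38e-16) and 0.382 times that in SUM149PT (-1.39 ± 0.08). Its weaker probe sets were lower against SUM159PT, but 1 of them, of mean signal 203, had a value of 0.45 for HS578T minus SUM149PT. Over the whole set there were 39 further probe sets, of which 20 had a value below 0 for HS578T minus SUM149PT and 31 for HS578T minus SUM159PT. Among the 22 of mean signal 200 or more these counts were 16 and 21. POLR1A, the catalytic subunit, was 304 ± 34.2, 482 ± 52.8 and 435 ± 49.6 in HS578T, SUM149PT and SUM159PT (SD, n = 3 each). The SUM lines overlapped for this gene, and a weaker probe set of POLR1A had a value of 1.69 for HS578T minus SUM149PT. POLR1C, a subunit shared with RNA polymerase III, was 1378 ± 158, 1929 ± 85.3 and 2198 ± 96.6. UBTF, which binds ribosomal DNA, overlapped between HS578T (431 ± 27.6) and SUM149PT (453 ± 36.2) and was higher in SUM159PT (678 ± 102). All 4 weaker probe sets of UBTF had values above 0 for HS578T minus SUM149PT, from 0.08 to 1.09.

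The snoRNP proteins were lower in HS578T than in SUM159PT in 5 of 5 genes, and lower than in SUM149PT in 4 of 5. The shares of all genes that were lower were 30.7% and 33.8%. NOLC1, a chaperone that brings snoRNPs to the nucleolus, read 2334, 2645 and 2840 in HS578T, 7396, 7894 and 7133 in SUM149PT, and 4926, 5114 and 4815 in SUM159PT. SUM149PT was the highest line and none of the lines overlapped. NOLC1 differed by -1.52 ± 0.07 between HS578T and SUM149PT and by 0.59 ± 0.07 between SUM149PT and SUM159PT (limma, adjusted p = 8.58e-15 and 2.18e-07). GAR1, a core protein of the box H/ACA particles that guide pseudouridine formation, was 1595 ± 149, 2191 ± 86.6 and 3922 ± 271. FBL, the methyltransferase of the box C/D particles, was 6073 ± 252, 7129 ± 316 and 10330 ± 543. Both were lowest in HS578T and highest in SUM159PT on every DMSO array. NOP58, another core protein of the box C/D particles, was lower in HS578T than in SUM159PT by -0.55 ± 0.09 and did not pass against SUM149PT (-0.12 ± 0.09, limma, adjusted p = 0.258). NHP2, a core box H/ACA protein, was 11060 ± 241, 15160 ± 560 and 14140 ± 702, and the SUM lines overlapped.

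The largest line differences of the set were among the 15 genes of the small subunit processome and 40S maturation. All 15 were lower in HS578T than in SUM159PT (median -1.10), and 13 were lower than in SUM149PT (median -1.05). Over all genes tested 30.7% and 33.8% were lower. UTP15, a scaffold protein of the early processome, read 401, 403 and 485 in HS578T, 1092, 1150 and 1129 in SUM149PT, and 2140, 1981 and 2167 in SUM159PT. Its level in HS578T was 0.21 times that in SUM159PT (-2.25 ± 0.12, limma, adjusted p = 5.09e-14), the lowest ratio of the set. NAT10, which acetylates cytidines of the 18S RNA, read 694, 759 and 796 in HS578T, 3074, 2907 and 3158 in SUM149PT, and 1969, 2350 and 1921 in SUM159PT. Its HS578T level was 0.25 times that in SUM149PT (-2.0 ± 0.09, limma, adjusted p = 2.98e-15). These 2 genes thus had their highest level in different lines, with no overlap between lines in either.

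The small subunit genes split over the SUM lines. HEATR1, another early processome protein, was 1550 ± 321 in HS578T, 4539 ± 497 in SUM149PT and 2997 ± 143 in SUM159PT. UTP4, of the same early group, was 3744 ± 223, 8429 ± 414 and 5155 ± 426, a difference of 0.71 ± 0.08 between the SUM lines. With NAT10 these 3 were higher in SUM149PT than in SUM159PT (HEATR1 0.59 ± 0.12, NAT10 0.55 ± 0.09). With the mean of all its probe sets HEATR1 was 0.22 higher in SUM149PT and no longer passed (adjusted p = 0.201). NOP14, TSR1 and NOB1, the last being the nuclease that makes the 3′ end of 18S RNA, were highest in SUM149PT on every DMSO array but did not pass between the SUM lines (differences of 0.20 to 0.28).

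The other 8 small subunit genes that differed between the SUM lines were lower in SUM149PT. UTP20, a large scaffold protein, read 1459, 846 and 790 in SUM149PT and 2109, 1980 and 1838 in SUM159PT (-0.98 ± 0.17, limma, adjusted p = 2.72e-05). One SUM149PT array was thus well above the other 2. RRP12 was 454 ± 137 in HS578T, 469 ± 111 in SUM149PT and 928 ± 51.2 in SUM159PT, so only SUM159PT stood apart. DDX10, an RNA helicase, showed the same form with 2289 ± 43.6, 2230 ± 45.6 and 3315 ± 146. Without the highest-mean rule, the mean of its probe sets gave -0.17 between the SUM lines and did not pass (adjusted p = 0.305). WDR75 (833 ± 143, 1325 ± 96.4 and 1990 ± 32.1) and WDR43 (1192 ± 80.9, 1555 ± 216 and 2565 ± 109), both early processome proteins, and IMP4 (1535 ± 96.9, 2288 ± 130 and 3474 ± 78.2), which joins the U3 snoRNA to the precursor, rose from HS578T to SUM149PT to SUM159PT.

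**Figure D3:**
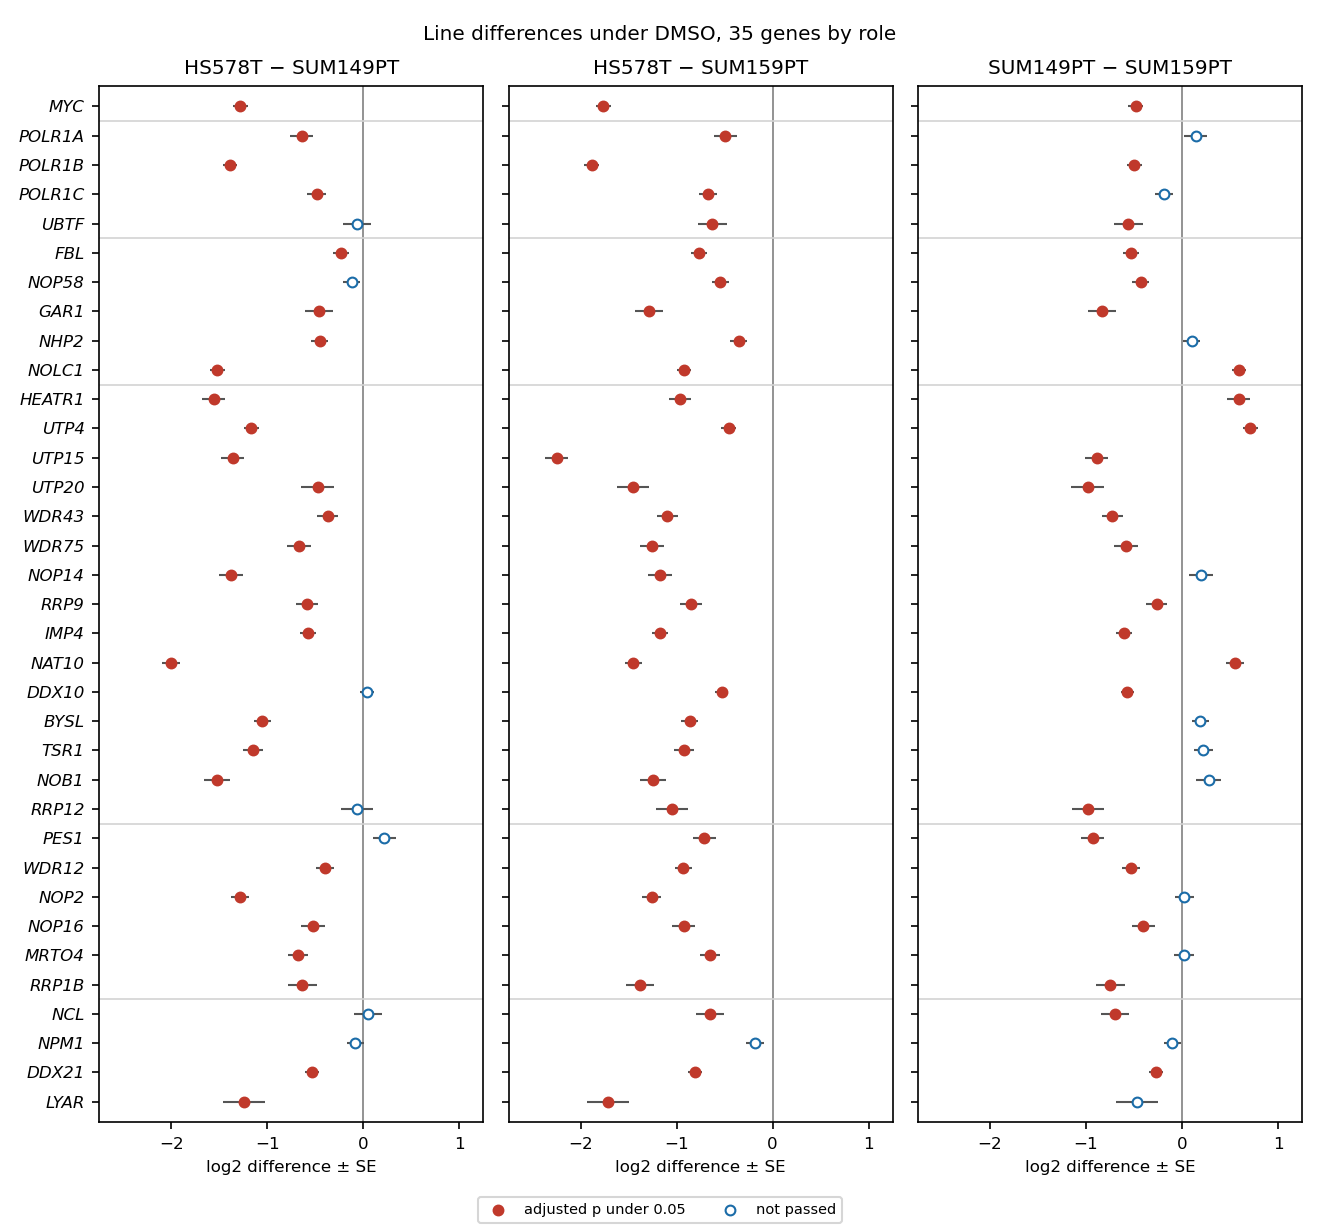
Log2 difference ± SE (horizontal axis) of the 35 genes between lines under DMSO, grouped from top to bottom as MYC, RNA polymerase I, snoRNP proteins, small subunit, 60S assembly and other nucleolar proteins. Filled red points passed adjusted p under 0.05 and open blue points did not; HS578T is lower in 28 and 34 of 35 genes, and 4 genes, NOLC1, HEATR1, UTP4 and NAT10, are called higher in SUM149PT than in SUM159PT.

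Of the 6 genes of 60S assembly, 6 were lower in HS578T than in SUM159PT and 5 were lower than in SUM149PT. Among all genes tested 30.7% and 33.8% were lower. NOP2, which methylates 28S RNA, read 588, 630 and 730 in HS578T, 1603, 1615 and 1571 in SUM149PT, and 1603, 1827 and 1324 in SUM159PT. The SUM lines overlapped and both lay above HS578T (-1.28 ± 0.10 and -1.26 ± 0.10, limma, adjusted p = 4.3e-11 and 9.41e-11). RRP1B was 3755 ± 688, 5779 ± 517 and 9686 ± 564. PES1 and WDR12, partners in one complex that is needed to cut the precursor of 28S RNA, differed in order. WDR12 was 3093 ± 305, 4076 ± 289 and 5891 ± 230, rising from HS578T to SUM159PT. PES1 was 1851 ± 51.7, 1591 ± 155 and 3045 ± 283, and was the 1 gene of the set whose SUM149PT arrays were the lowest of the 9, although its difference from HS578T did not pass (0.22 ± 0.12, limma, adjusted p = 0.116).

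Of the 4 other nucleolar proteins, 3 were lower in HS578T than in SUM159PT and 2 were lower than in SUM149PT. Over all genes tested 30.7% and 33.8% were lower in these comparisons. Against SUM149PT 50% of the 4 were called either way, below the 64.2% of all genes. NPM1, a histone chaperone and main nucleolar protein, was 25870 ± 1484, 27410 ± 1851 and 29430 ± 2499. The 3 lines overlapped and no difference passed (limma, adjusted p = 0.449, 0.0896 and 0.36 for HS578T against SUM149PT, HS578T against SUM159PT and SUM149PT against SUM159PT). NPM1 has near-identical pseudogene copies, and whether they share its signal was not tested. NCL, which binds precursor RNA, was 12880 ± 1072 in HS578T and 12450 ± 259 in SUM149PT, with overlap, and 20190 ± 608 in SUM159PT. DDX21, an RNA helicase, was lower in HS578T than in both SUM lines (-0.54 ± 0.07 and -0.81 ± 0.07). LYAR, a nucleolar protein of growing cells, was 1100 ± 309, 2586 ± 380 and 3557 ± 287, and differed by -1.25 ± 0.22 and -1.71 ± 0.22.

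These line differences were also present on the AZD3965 arrays, a comparison added after the data were seen. There 30 genes were lower in HS578T than in SUM149PT and 35 than in SUM159PT, with 0 higher in either, where 37.9% and 32.6% of all genes were lower, and 67.4% and 59.7% called either way. Between the SUM lines, 20 genes were lower and 7 higher in SUM149PT, where 28.8% and 32% of all genes were called in these directions and 60.8% in either. Leaving out 1 DMSO array at a time gave 26 to 28, 34 to 35 and 23 to 25 called genes in the 3 comparisons. Centring each array on its median moved the median of all genes to -0.12 in both HS578T comparisons and that of the set to -0.69 and -1.02. Averaging all probe sets of a gene gave 27 called genes for HS578T against SUM149PT, of which 3 were higher and 24 lower. No share of all genes is given here for that probe set rule.

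Genes of the same processes outside the set were counted by lists chosen with earlier results known. Of 30 further small subunit factors, 24 were lower and 1 higher in HS578T than in SUM159PT, and 20 lower and 1 higher than in SUM149PT (medians -0.65 and -0.60). Of 27 further large subunit factors, 22 were lower and 1 higher than in SUM159PT, and 14 lower and 5 higher than in SUM149PT (medians -0.87 and -0.27). Of 14 further genes of RNA polymerase I, 11 were lower and 0 higher than in SUM159PT, and 5 lower and 3 higher than in SUM149PT. Over all genes tested 30.7% were lower and 27.3% higher than in SUM159PT, and 33.8% and 30.4% than in SUM149PT. Against SUM149PT 57.1% of the polymerase list was called either way, below the 64.2% of all genes. The direction was thus mixed in SUM149PT for the large subunit and polymerase lists. TAF1A, part of the factor that brings polymerase I to the promoter, was -2.73 ± 0.11 between HS578T and SUM149PT and 2.18 ± 0.11 between SUM149PT and SUM159PT. NVL, an ATPase of 60S maturation, was -2.03 ± 0.11 and 1.70 ± 0.11 in these 2 comparisons. Both had their highest level in SUM149PT. POLR1E of the polymerase list went the other way, with 1.41 ± 0.10 and -1.91 ± 0.10 in these 2 comparisons (limma, adjusted p = 1.08e-11 and 5.54e-14).

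For the structural proteins of the ribosome the counts were near or below the share of all genes. Of 11 measured cytosolic ribosomal protein genes, 2 were lower in HS578T than in SUM159PT and 4 than in SUM149PT, with 0 higher and medians of -0.13 and -0.17, where 30.7% and 33.8% of all genes were lower. Between SUM149PT and SUM159PT 0 of 11 passed. Of 13 MYC-responsive genes outside the nucleolus, 10 were lower in HS578T than in SUM159PT and 6 than in SUM149PT, with 0 and 2 higher. PPAT, the first enzyme of purine synthesis, was -1.92 ± 0.10 against SUM159PT. It was also lower in SUM149PT than in SUM159PT, by -1.86 ± 0.10, so SUM159PT stood apart. CCND2 of this list went the other way, with 2.71 ± 0.31 for HS578T minus SUM149PT (limma, adjusted p = 4.74e-08). Against SUM149PT 61.5% of the list was called either way, below the 64.2% of all genes. Of 10 tested partners and antagonists of MYC, 3 were lower and 1 higher than in SUM159PT, and 7 lower and 2 higher than in SUM149PT. MAX was lower in HS578T by -0.80 ± 0.06 and -0.88 ± 0.06 (limma, adjusted p = 1.2e-10 and 2.99e-11). With the mean of all its probe sets the difference of MAX from SUM159PT was -0.30 and did not pass (adjusted p = 0.0608).

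AZD3965 for 24 hours left no called change in the set in the main fit. Its spread was estimated over all 24 arrays, scramble replicate 3 among them. In HS578T, SUM149PT and SUM159PT 0 of 35 genes passed, where 0.304%, 0.0283% and 0% of all genes were called. At an unadjusted p under 0.05, 3, 9 and 3 genes passed in limma's test. The effect averaged over the lines called 0 of 35 (0.0283% of all genes), with 6 at an unadjusted p under 0.05. For this average, FBL (0.15 ± 0.05) had the smallest p of the genes that rose and HEATR1 (-0.17 ± 0.07) of those that fell. The share of all genes at this unadjusted cut was not counted, so these unadjusted counts cannot be set against it. The F test of whether the effect differed between the lines also called 0 of 35 (0.12% of all genes), its smallest p being that of NOP58 (0.0128, adjusted p = 0.383 in limma). The median effect on the set was -0.08 in HS578T, 0.03 in SUM149PT and 0.07 in SUM159PT, beside -0.02, 0.04 and 0.00 over all genes, and the first 2 changed sign after median centring of the arrays (0.08 and -0.03, beside 0.14 and -0.02 over all genes).

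MYC did not pass in any line. The effect of AZD3965 on MYC was -0.01 ± 0.08 in HS578T (95% confidence interval -0.17 to 0.16), 0.08 ± 0.08 in SUM149PT (-0.08 to 0.25) and 0.19 ± 0.08 in SUM159PT (0.03 to 0.36; limma, adjusted p = 0.728). The 3 treated SUM159PT arrays, at 13470, 13270 and 15600, lay above the 3 DMSO arrays, while treated and control arrays overlapped in the other lines. For 32, 32 and 35 of the 35 genes in HS578T, SUM149PT and SUM159PT the 95% interval lay within a 1.5-fold change either way. HEATR1, LYAR and UTP20 in HS578T and WDR75, NOB1 and LYAR in SUM149PT had intervals that reached beyond this limit.

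Some genes nearest to the threshold under AZD3965 passed it when 1 array was left out or arrays were weighted. With array weights HEATR1 in HS578T (-0.54, limma, adjusted p = 0.00326) and FBL in SUM149PT (0.30, adjusted p = 0.0456) passed. HEATR1 in HS578T read 1606, 1839 and 1204 under DMSO and 1150, 1103 and 1140 with AZD3965. The groups did not overlap, and the difference was -0.43 ± 0.12 (limma, adjusted p = 0.155). Without DMSO replicate 3 it was -0.60 and passed (limma, adjusted p = 0.0168), while the other bright probe set of HEATR1, of mean signal 3304, gave -0.02. NOP58 (-0.22 ± 0.09) and POLR1A (-0.26 ± 0.12) had the next smallest p of the genes that fell in HS578T. Of the genes that rose there, RRP1B had the smallest p (0.17 ± 0.15). In SUM149PT, FBL was 7129 ± 316 under DMSO and 8847 ± 951 with AZD3965 (0.31 ± 0.08, limma, adjusted p = 0.142). NPM1 was 0.26 ± 0.09 and WDR12 0.24 ± 0.09. Of the genes that fell there, WDR75 had the smallest p (-0.33 ± 0.13, limma, adjusted p = 0.199). GAR1 (-0.15 ± 0.15) and RRP1B (-0.14 ± 0.15) came next. Without AZD3965 replicate 1, 4 genes were called higher in SUM149PT, among them FBL (0.38, limma, adjusted p = 0.0196) and NPM1 (0.35, adjusted p = 0.0348). The share of all genes called in that fit is not given here, so the 4 cannot be set against it. In SUM159PT IMP4 had the smallest p with 0.23 ± 0.08 (limma, adjusted p = 0.728). RRP1B had the smallest p of the genes that fell in this line (-0.22 ± 0.15).

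**Figure D4:**
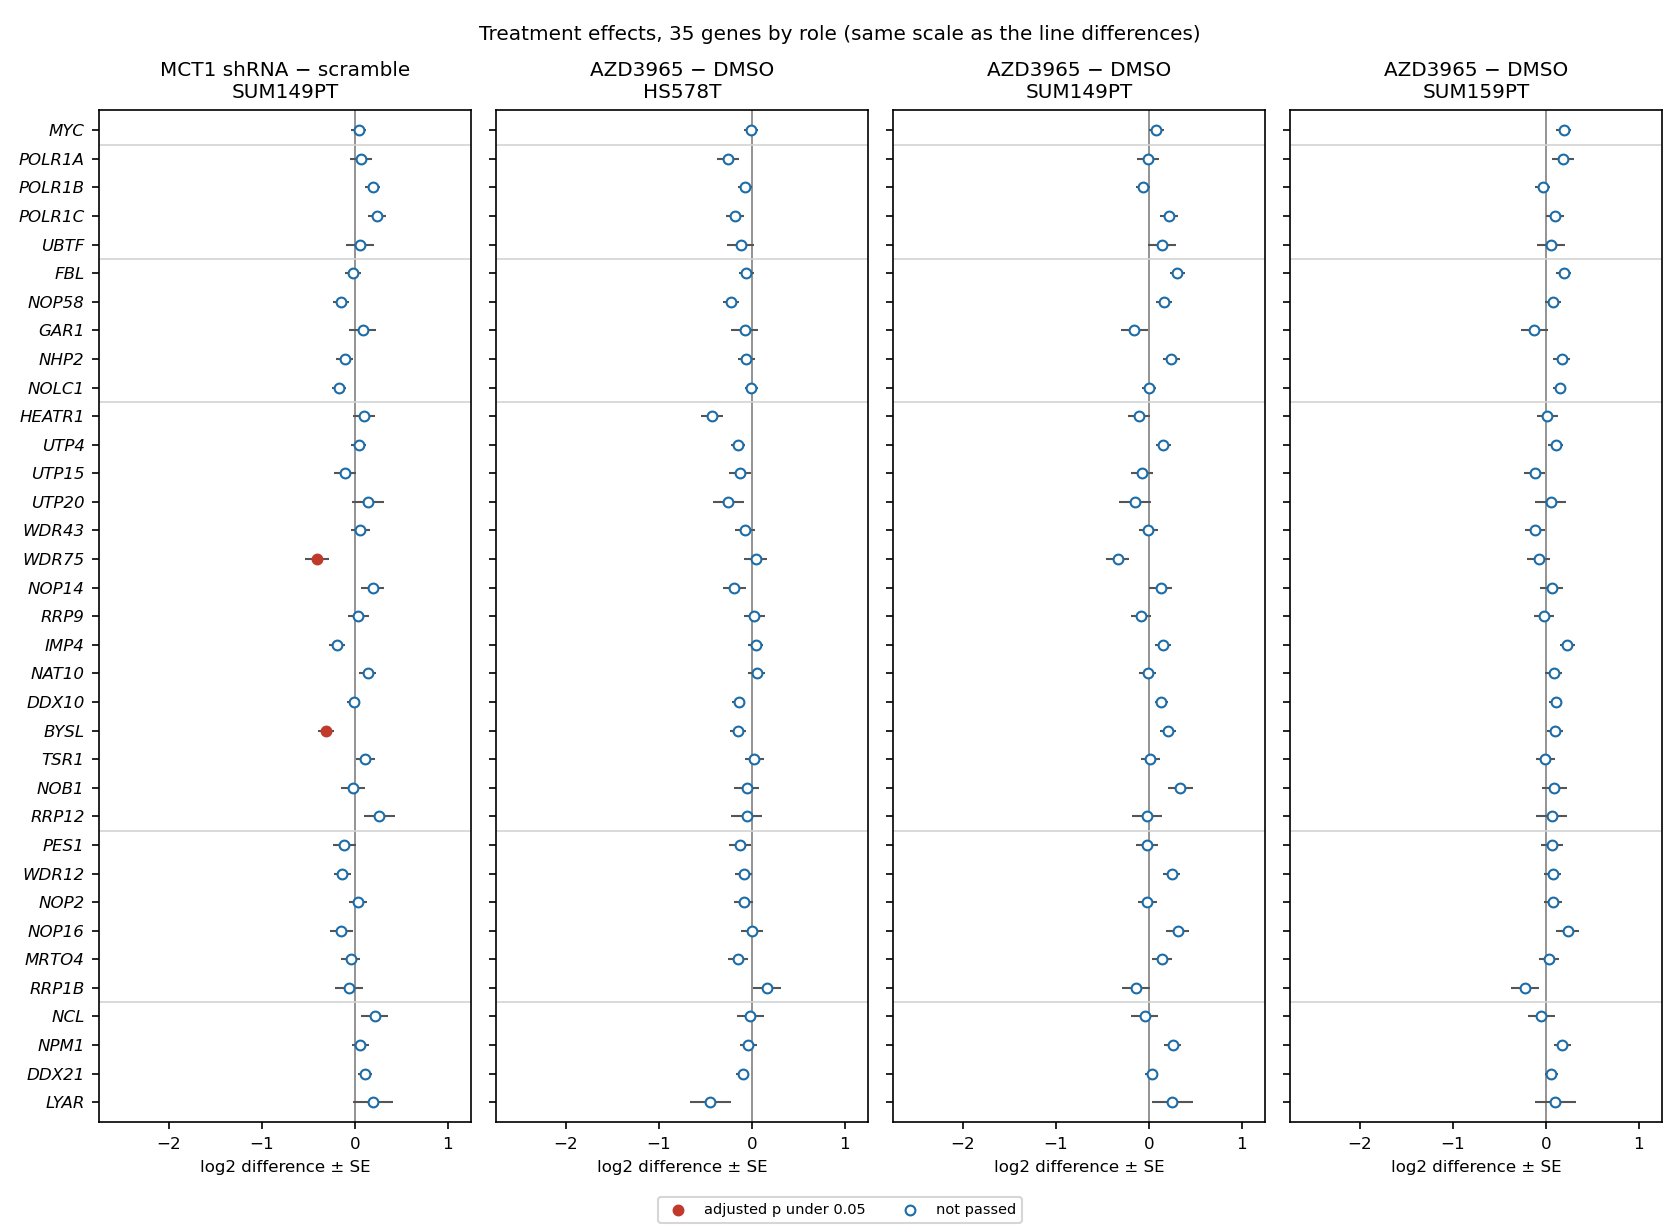
Log2 difference ± SE (horizontal axis, same range as for the lines) of the 35 genes between treated and control arrays, for MCT1 shRNA in SUM149PT and AZD3965 in each line. Filled red points passed adjusted p under 0.05; only WDR75 and BYSL with MCT1 shRNA did, and the other points lie between -0.45 and 0.34.

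MCT1 shRNA in SUM149PT changed few genes of the set. Of 35 genes, 2 were lower and 0 higher than with scramble shRNA, where 7.64% of all genes tested were lower, 7.22% higher and 14.9% called either way. The median difference was 0.04, beside 0.00 over all genes. BYSL, a factor of 40S maturation, read 2342, 2019 and 2307 with scramble and 1836, 1766 and 1770 with MCT1 shRNA. WDR75, the early processome protein, read 1799, 1693 and 1809 and then 1432, 1232 and 1331. Neither gene overlapped between the groups, and the differences were -0.31 ± 0.09 and -0.41 ± 0.13 (limma, adjusted p = 0.0196 and 0.0298).

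Neither call held without the array that stood apart. Without scramble replicate 3, 0 of 35 genes were called, with BYSL at -0.28 (limma, adjusted p = 0.06) and WDR75 at -0.39 (adjusted p = 0.0746), while 12.3% of all genes were called. Leaving out each of the 6 arrays in turn gave 0 to 4 called genes. It gave 0 also without scramble replicate 1, MCT1 shRNA replicate 2 or MCT1 shRNA replicate 3, and 4 without scramble replicate 2. On scramble replicate 3 several other genes stood apart as well. NCL read 6694 there against 11380 and 13620 on the other scramble arrays, LYAR 1682 against 3689 and 3511, and NOB1 3722 against 2470 and 2464.

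The rest of the set did not pass with MCT1 shRNA. MYC was 0.04 ± 0.08 (95% confidence interval -0.12 to 0.20, limma, adjusted p = 0.792). POLR1C was 0.24 ± 0.10 and POLR1B 0.19 ± 0.08, each with treated arrays above the control arrays (limma, adjusted p = 0.0913 and 0.0987). NOLC1 was -0.17 ± 0.07 (adjusted p = 0.134). For 32 of the 35 genes the interval lay within a 1.5-fold change. Centring each array on its median moved the median of all genes to -0.12 and that of the set to -0.07, and the share of all called genes that were higher from 48.6% to 23.1%.

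**Figure D5:**
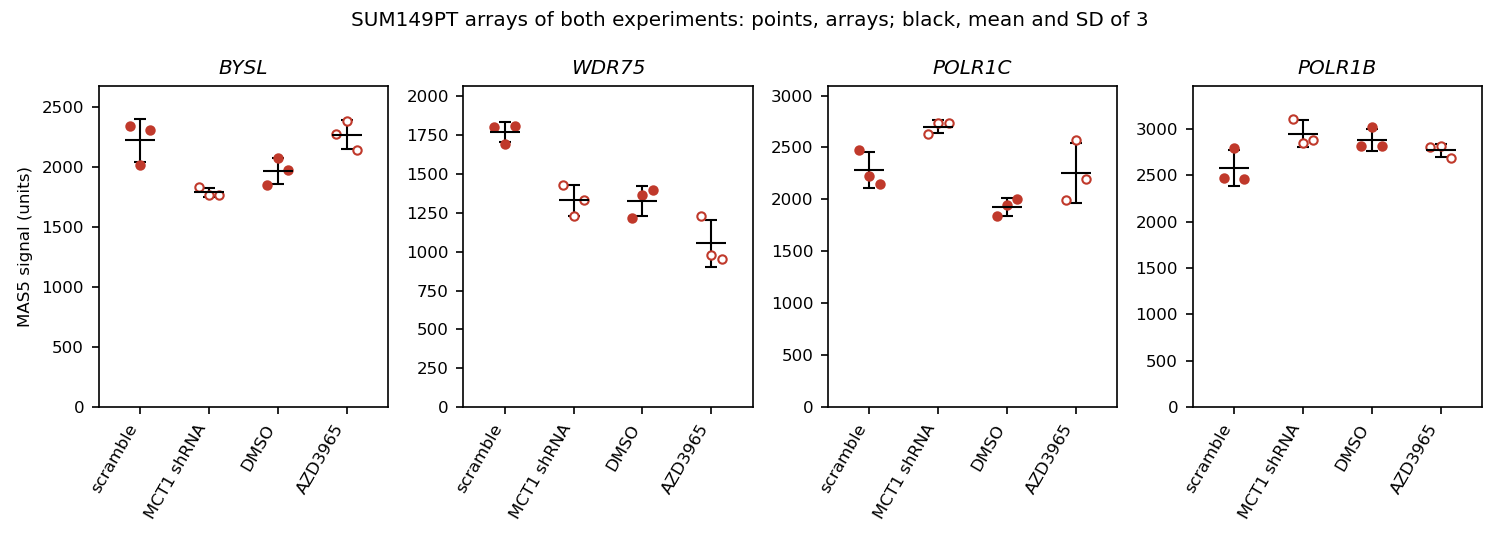
MAS5 signal (vertical axis, linear units from 0) of BYSL, WDR75, POLR1C and POLR1B on the 12 SUM149PT arrays; points are arrays, filled for controls and open for treated, and black marks show mean and SD of 3. BYSL and WDR75 lie lower with MCT1 shRNA than with scramble, and WDR75 on the DMSO arrays (1325 ± 96.4) is near its MCT1 shRNA level (1332 ± 100).

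Around the set, the partners and antagonists of MYC held 2 genes that rose and 2 that fell with MCT1 shRNA, of 10 tested. MXD1 and MXI1, which compete with MYC for MAX, rose by 0.71 ± 0.12 and 0.40 ± 0.11 (limma, adjusted p = 1.68e-04 and 0.0132). MXD3, of the same family, fell by 1.03 ± 0.23 (adjusted p = 0.00357). The family thus moved in both directions. ZBTB17 was the other gene of this list that fell (-0.37 ± 0.11). Centred on array medians, MXI1 was 0.28 and did not pass (adjusted p = 0.153). Of 13 MYC-responsive genes 1 rose and 4 fell, among them NPM3 (-0.37 ± 0.08) and PPAT (-0.41 ± 0.10). Without scramble replicate 3, MXD1, MXI1, MXD3, NPM3 and PPAT still passed. In a fit of the compared arrays alone NPM3 (adjusted p = 0.0997) and MXI1 (0.0511) did not pass in limma's test, and with the mean of all probe sets PPAT was -0.245 and did not pass (adjusted p = 0.0926). Of 14, 30 and 27 further genes of RNA polymerase I, the small and the large subunit, 0, 0 and 1 rose and 2, 2 and 2 fell, where 7.22% of all genes rose and 7.64% fell. Of 11 ribosomal protein genes 0 passed, though all 11 differences were above 0 (median 0.15). With AZD3965, 0 genes of these lists passed in any line. In SUM149PT all 11 ribosomal protein genes again had values above 0 (median 0.33), 10 of them at an unadjusted p under 0.05. In SUM159PT all 11 were above 0 (median 0.23, 2 at an unadjusted p under 0.05), and in HS578T all 11 were below 0 (median -0.05, 0 at an unadjusted p under 0.05 in limma). For the unadjusted cut the share of all genes was not counted.

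The shRNA and the inhibitor were compared directly in SUM149PT. The shRNA effect differed from the AZD3965 effect in 1 of 35 genes, where 9.52% of all genes differed. BYSL fell with the shRNA and read 1968 ± 111 under DMSO and 2268 ± 121 with AZD3965, a difference of effects of -0.51 ± 0.12 (limma, adjusted p = 0.011). Centred on array medians it was -0.56 and did not pass (adjusted p = 0.0952). WDR12 and IMP4 had the next smallest p with -0.38 ± 0.13 and -0.34 ± 0.12 (adjusted p = 0.0651 and 0.0721), and MYC differed by -0.04 ± 0.11. The count was 5 without AZD3965 replicate 1, 3 without MCT1 shRNA replicate 3, and 2 without DMSO replicate 2 or scramble replicate 2.

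The 2 control groups of SUM149PT, scramble shRNA and DMSO, come from different experiments, and the gene set differed between them in 11 of 35 genes. Of these, 7 were higher and 4 lower with scramble (limma, adjusted p under 0.05), where 17.7% and 15.3% of all genes were called in these directions and 33% in either. The median difference was 0.02, beside -0.01 over all genes. IMP4 was higher with scramble by 0.59 ± 0.08 and WDR75 by 0.41 ± 0.13 (limma, adjusted p = 9.25e-06 and 0.0137). RRP9, which binds the U3 snoRNA, was lower by -0.62 ± 0.11 and POLR1A by -0.44 ± 0.12 (adjusted p = 1.47e-04 and 0.00683). The WDR75 difference between the 2 controls is as large as its change with MCT1 shRNA. Experiment, lentivirus, puromycin and DMSO cannot be told apart in this comparison.

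With the scramble arrays in place of the SUM149PT DMSO arrays, 27 genes were lower and 2 higher in HS578T, where 36% and 32.4% of all genes were called in these directions and 68.4% in either. The 2 higher genes were PES1 (0.44 ± 0.12) and NCL (0.34 ± 0.15), and NCL was low on scramble replicate 3.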

How the data were processed

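RNA was read on 24 Affymetrix arrays, 3 per group. Per the submitters' processing notes the authors used MAS5, and the deposited values were taken as its intensity on a linear scale, with a version not given in the sources used here. On every array the trimmed mean was 500.1, so a common scaling was already in the values, and none was added. Genes were named through an annotation of 54675 probe sets (41097 with 1 symbol, 1801 with several, 11777 with none).

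log2(signal + 16) of the brightest probe set per gene was analysed for genes at or above the 40th percentile (5.58). A model of 8 group means was fitted with limma 3.58.1 in R 4.3.3 (eBayes with trend, 16 residual and 6.52 prior degrees of freedom); tests were two-sided and adjusted over 14141 genes. Alternatives were another scaling, offset, filter or probe set rule, array weights, the compared arrays alone, a replicate block and leaving out each array; the AZD3965 arrays in place of DMSO were added after the data were seen. Named genes were drawn from MYC, up to 12 called members each way per comparison, and up to 3 called genes of each further list. With fewer than 3 members called, the 3 of smallest p each way were used. Not every gene of this rule was given a value, and genes beside these were named after their values were seen. The members and lists were chosen with earlier results of these data known. On simulated data with 200 changed genes, 71% of 2-fold and 49% of 1.5-fold changes were recovered for the shRNA comparison, and 83%, 70% and 83% of 2-fold changes for AZD3965 in HS578T, SUM149PT and SUM159PT. Replicate numbers were not used to pair arrays in the main fit.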

Additional observations from a re-analysis of the deposited data

Results flagged for a closer look

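The results below were set out because the effect of MCT1 shRNA differed from the effect of AZD3965 in SUM149PT by a test of the difference itself (limma, adjusted p under 0.05 over all genes). Values are log2 differences of the 2 effects, and none was given a cause. Of all genes tested 9.52% differed by this test, and of the gene set 2.86%. The share was 30%, 15.4% and 14.3% in the lists of MYC partners and antagonists, MYC-responsive genes and polymerase I genes. It was 3.33% and 3.7% in the small and large subunit lists and 0% in the ribosomal proteins. Within the gene set BYSL differed by -0.51. Among the partners and antagonists of MYC, MXD1 differed by 0.90 (0.71 with the shRNA and -0.19 with AZD3965), MNT by 0.60 and ZBTB17 by -0.48. Among the MYC-responsive genes, PA2G4, which encodes a growth-regulating protein, differed by -0.65 and NPM3, a relative of NPM1, by -0.49. Among further genes of RNA polymerase I, POLR1H differed by -0.87 (-0.57 with the shRNA and 0.31 with AZD3965) and POLR2H, a subunit shared by the 3 nuclear polymerases, by -0.48. Of the assembly factors, RRP7A of the small subunit differed by -0.58 and NOC2L of the large subunit by -0.51. Without scramble replicate 3, MNT (adjusted p = 0.0512), ZBTB17 (0.108), POLR2H (0.109) and NOC2L (0.0682) did not pass in limma's test. Centred on array medians, MXD1 and POLR1H passed and the other 8 did not. With the mean of all probe sets of a gene, MXD1 (0.43, adjusted p = 0.0604), POLR1H (-0.41, 0.169), MNT (0.28, 0.505), POLR2H (0.0572), RRP7A (0.0909), NOC2L (-0.006, 0.993) and ZBTB17 (0.033, 0.963) did not pass in limma's test, while BYSL, NPM3 and PA2G4 did. The shRNA value of POLR1H was -0.11 in that setting (adjusted p = 0.627), and in a fit of the compared arrays alone it did not pass (adjusted p = 0.0581).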

How the results depend on the processing

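The counts of called genes in the 3 line comparisons stayed within 1.5 times under every alternative run, and the AZD3965 average, the test between lines and SUM159PT gave 0 under all. With array weights 1 gene was called for AZD3965 in HS578T (HEATR1, -0.54), 1 in SUM149PT (FBL, 0.30) and 5 for the shRNA effect minus the AZD3965 effect. That last count, 1 as reported, was 2 with quantile normalization, 0 with median centring and 2 with the mean of all probe sets. The MCT1 shRNA count, 2 as reported, was 1 in a fit of the compared arrays alone and 1 with the replicate block. Arrays of the same number did not deviate together over all genes tested (r from -0.13 to 0.08 over 12 pairs). The labels do not say whether a number marks a shared batch, and r over all genes cannot decide this. Leaving out 1 array gave 0 to 4 calls for the shRNA, 0 to 1 for AZD3965 in HS578T, 0 to 4 in SUM149PT and 1 to 5 for the difference of effects. For most of these alternatives the share of all genes called is not given here, so their counts cannot be set against it. Of 2731 values of named genes under alternatives, 2583 kept their side of the threshold, 132 lost the call, 13 gained it and 3 reversed. A reversal was counted only where a fit passed, so the 2583 can include sign changes of values that passed in neither fit. All 3 reversed with the mean of all probe sets, NOC2L with the shRNA (0.17), ZBTB17 for the difference of effects (0.033) and MLXIP between HS578T and SUM159PT (0.12), and none of them passed there. The cause was not tested. Median centring moved the share of higher calls from 69.8% to 97.1% for AZD3965 in HS578T. The number of arrays limits small effects.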
